A study of Mus musculus with 6 samples.

Results

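The B cell tetraspanins were followed in follicular B cells that lack myosin IIa. They are 8 genes chosen by name (Cd37, Cd53, Cd81, Tspan13, Cd82, Cd151, Cd9 and Cd63) among the 20433 genes of the table, and all 8 were among the 9866 genes whose mean level reached 1 FPKM over the genotypes. FPKM counts sequenced fragments relative to the length of the transcript and the size of the library. Being taken per length, it allows an approximate comparison between genes. It does not correct for other differences between them, such as in the amplification of the RNA. The samples were splenic follicular B cells of C57BL/6 mice, sorted as B220+AA4.1-CD23+CD21lo cells, from CD23Cre+Myh9wt/fl mice (3 samples, the controls) and CD23Cre+Myh9fl/fl mice (3 samples). Both groups carried the CD23Cre transgene, in which the CD23 (Fcer2a) promoter drives Cre from the transitional B cell stage on. The controls had lost 1 of their Myh9 alleles in these cells and were therefore haploinsufficient and not wild-type, and cells that had not yet recombined could remain in either group. The age of the mice behind each sample is not given in the labels, nor whether a sample was 1 mouse. The authors deposited 1 FPKM value per genotype, pooled over its 3 samples, so no spread between samples could be computed and no difference given here was tested. The authors' own test columns were not used, and the depth of each sample is unknown.

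Tetraspanins are small membrane proteins that cross the membrane repeatedly, with a short and a large loop outside the cell, and that gather partner proteins into patches of the membrane. On B cells CD81 is found in a complex with CD21 (Cr2), the complement receptor. CD37 and CD53 are found mainly on leukocytes. CD63 resides in late endosomes, lysosomes and exosomes, CD9 and CD151 associate with integrins, CD82 with integrins and MHC class II, and CD9 on mouse B cells is a marker of marginal zone, B1 and plasma cells.

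The large outer loop carries the motif Cys-Cys-Gly, which is the mark of the family. The coding bases around it are shown because this motif is what the 8 members share by sequence and what places them in 1 family. They are read 5′ to 3′ on the coding strand from the GENCODE M21 transcripts (GRCm38), with the codons of Cys-Cys-Gly in capitals.
Cd37: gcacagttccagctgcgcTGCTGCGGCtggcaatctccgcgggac
Cd53: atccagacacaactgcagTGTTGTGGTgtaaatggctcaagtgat
Cd81: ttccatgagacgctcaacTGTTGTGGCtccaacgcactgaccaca
Tspan13: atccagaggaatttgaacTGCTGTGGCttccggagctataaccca
Cd82: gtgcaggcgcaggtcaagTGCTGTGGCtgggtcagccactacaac
Cd151: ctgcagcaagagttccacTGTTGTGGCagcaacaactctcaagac
Cd9: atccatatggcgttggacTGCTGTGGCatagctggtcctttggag
Cd63: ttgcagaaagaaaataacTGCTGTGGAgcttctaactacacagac
The window of Tspan13 lay in a single coding exon at chr12:36021819-36021863 (minus strand), whereas those of the other 7 members crossed an exon junction. Intron included, the latter span chr7:45235611-45236126 for Cd37, chr3:106763260-106767338 for Cd53, chr7:143066341-143066693 for Cd81, chr2:93420723-93421838 for Cd82, chr7:141470214-141470342 for Cd151, chr6:125462171-125462338 for Cd9 and chr10:128912052-128912193 for Cd63. The glycine codon was GGC in 6 of the members, GGT in Cd53 and GGA in Cd63. The members encode proteins of 204 (Tspan13) to 281 residues (CD37). From the motif to the last membrane span, 4 cysteines were found in CD9, CD53 and CD81 and 6 in CD37, CD63, CD82, CD151 and TSPAN13. Over the 28 pairs of members, identity of the aligned proteins was 46.5% at most (CD9 with CD81), 23.5% at least (CD53 with TSPAN13) and 30.6% in the median. CD63 was the only one of the 8 whose last 4 residues form a tyrosine sorting signal, the short motif that adaptor proteins read to send it to lysosomes. Such motifs further from the end were not counted.

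The members differed far more between genes than between genotypes. Cd37 was by far the most abundant, with 834 FPKM in wt/fl cells against 877 FPKM in fl/fl cells, and ranked 101 of the 9866 compared genes by mean level. Cd53 followed with 306 FPKM in wt/fl cells against 322 FPKM in fl/fl cells (rank 186). Cd81 had 173 FPKM in wt/fl cells against 188 FPKM in fl/fl cells (rank 311). These 3 genes, which encode the tetraspanins best known for work on B cells, held 83.8% of the summed FPKM of all 31 tetraspanin genes of the table in wt/fl and 84.6% in fl/fl cells. Tspan13, a member with no well-known partner on B cells, had 69.6 FPKM in wt/fl cells against 65.6 FPKM in fl/fl cells (rank 1002). Cd82 had 19.8 FPKM in wt/fl cells against 21.3 FPKM in fl/fl cells (rank 3678). The remaining 3 members lay at the low end of the compared genes. Cd151 had 5.08 FPKM in wt/fl cells against 5.39 FPKM in fl/fl cells (rank 7651). Cd9 had 4.61 FPKM in wt/fl cells against 2.52 FPKM in fl/fl cells (rank 8275). Cd63 had 3.81 FPKM in wt/fl cells against 2.40 FPKM in fl/fl cells (rank 8498), so that the mean level of Cd37 was 275-fold that of Cd63. Without a spread over samples it cannot be said whether neighbours in this order, such as Cd9 and Cd63, differ.

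**Figure D1:**
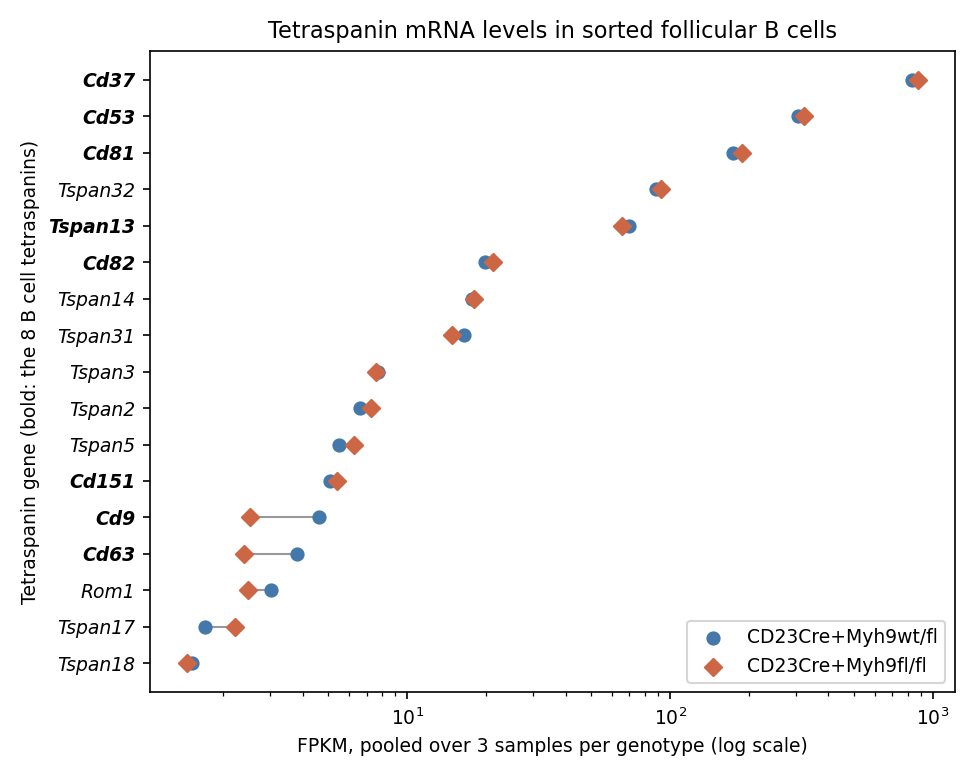
Levels of the 17 tetraspanin genes whose mean level reached 1 FPKM, on a log axis, as the authors' pooled value in wt/fl (circles) and fl/fl cells (diamonds). Cd37, Cd53 and Cd81 lie at 173 FPKM or more in both genotypes, and the widest gaps between the genotypes are at Cd9 (4.61 and 2.52 FPKM) and Cd63 (3.81 and 2.40 FPKM).

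Myh9, the deleted gene, had 50.6 FPKM in wt/fl cells against 21.1 FPKM in fl/fl cells. Its log2 ratio was -1.22, where every log2 ratio here is that of fl/fl over wt/fl after 1 FPKM was added to each. The pooled values of the genotypes are thus in the order that their labels give. Single samples could not be checked in this way. B cell markers were high in both genotypes, with Cd79b at 1638 and 1739 FPKM, Cd79a at 1098 and 1115 FPKM and Ptprc (B220) at 467 and 575 FPKM in wt/fl and fl/fl cells, respectively. Of the 9 B cell markers, 0 differed by 1.5-fold, beside 1.53% of all compared genes lower and 0.791% higher. Cd93 (AA4.1), which the sort selects against, had 3.28 FPKM in wt/fl cells against 4.23 FPKM in fl/fl cells.

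The first comparison asked whether any tetraspanin differed between myosin IIa-deficient and control cells. Cd9 was the only member that differed by at least 1.5-fold. Its level in fl/fl cells was 54.8% of that in wt/fl cells, a log2 ratio of -0.67, or 1.59-fold lower with the pseudocount and -0.87 without it. Cd63 was the next, at 62.9% of the wt/fl level and a log2 ratio of -0.50, which is 1.42-fold lower with the pseudocount and thus short of the threshold. Without the pseudocount the log2 ratio of Cd63 was -0.67, past the threshold. Thus 1 of 8 members (12.5%) was at least 1.5-fold lower in fl/fl cells, against 1.53% of all compared genes, and 0 of 8 were at least 1.5-fold higher, against 0.791%. A single gene is too few to read that share as a property of the family. Low genes scatter more in such a table. Of the 2137 genes with a mean of 1 to 5 FPKM, which include Cd9 and Cd63, 3.93% were at least 1.5-fold lower, 2.25% had a log2 ratio at or below that of Cd9 and 5.38% had one at or below that of Cd63. The middle 90% of these genes ran from -0.52 to 0.44, so Cd9 lay outside this range and Cd63 inside it.

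The other 6 members differed little between the genotypes, with log2 ratios from -0.08 to 0.12. Cd81 was higher in fl/fl cells with a log2 ratio of 0.12, and Cd82 with 0.10. Cd37, Cd53 and Cd151 each had a log2 ratio of 0.07, and Tspan13 had -0.08. Among genes whose mean level reached 100 FPKM the middle 90% of log2 ratios ran from -0.23 to 0.25, and Cd37, Cd53 and Cd81 lay inside it. The corresponding range was -0.24 to 0.25 for genes of 20 to 100 FPKM, which hold Tspan13 and Cd82, and -0.32 to 0.31 for genes of 5 to 20 FPKM, which hold Cd151. The median log2 ratio was 0.07 over the 8 members and 0.0026 over all compared genes, whose quartiles were -0.11 and 0.11. In bulk RNA such as this, fewer cells of a type and less RNA per cell cannot be told apart.

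**Figure D2:**
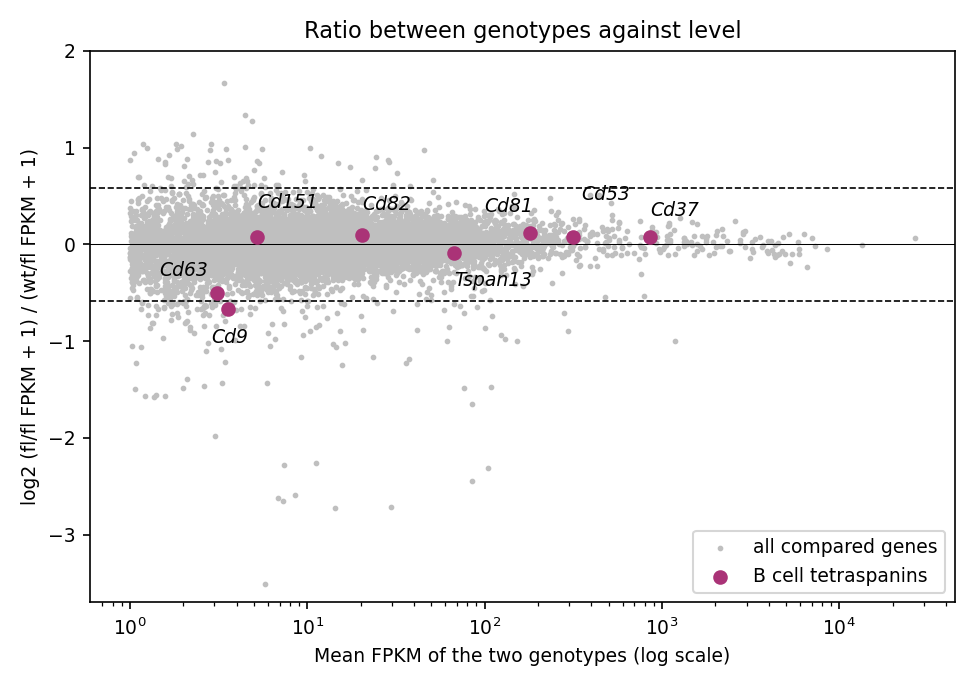
Log2 ratio of fl/fl over wt/fl against mean FPKM (log axis) for the 9866 compared genes (grey) and the 8 B cell tetraspanins (purple), with dashed lines at 1.5-fold. Cd9 lies below the lower line at -0.67, Cd63 lies above it at -0.50, and the other 6 members lie between -0.08 and 0.12.

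The composition of the tetraspanin mRNA was close between the genotypes. The summed FPKM of the 31 genes was 1567 in wt/fl and 1641 in fl/fl cells, of which the 8 members made up 90.3% and 90.5%. Cd9 and Cd63 together went from 0.538% of the sum in wt/fl to 0.300% in fl/fl cells, so their difference hardly moved the total. The ratio of Cd81 to Cd9, the closest pair by protein identity, was 37.5 in wt/fl and 74.5 in fl/fl cells, whereas that of Cd81 to Cd151 was 34.1 in wt/fl and 34.9 in fl/fl cells.

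**Figure D3:**
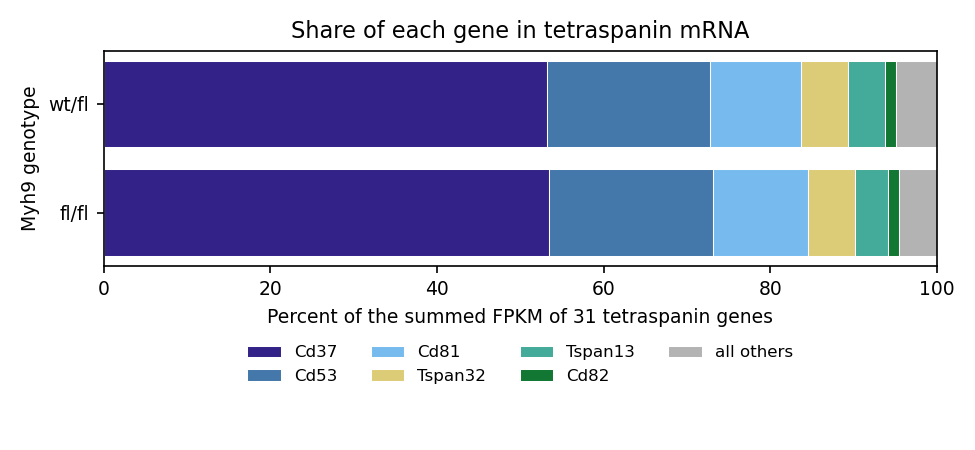
Share of each gene, in percent, in the summed FPKM of 31 tetraspanin genes, for wt/fl (upper bar) and fl/fl cells (lower bar). Cd37, Cd53 and Cd81 together hold 83.8% in wt/fl and 84.6% in fl/fl cells, and Cd9 and Cd63 fall in the grey segment.

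The rest of the family gave a background for the members. Of 23 other tetraspanin genes in the table, 9 had a mean of at least 1 FPKM and 14 lay below it, 1 of them (Tspan11) listed at 0 in both genotypes. Tspan32 was the only one of the 9 on the level of the higher members, with 88.0 FPKM in wt/fl cells against 92.6 FPKM in fl/fl cells. It is expressed in blood cells, and it was the sum of 4 entries, the largest of which had 62.6 FPKM in wt/fl cells against 66.5 FPKM in fl/fl cells. The smaller entries went in opposite directions, with 18.5 and 15.6 FPKM for 1 and 6.85 and 10.5 FPKM for another, and the last was listed at 0 in both. Tspan14 had 17.6 and 17.9 FPKM, Tspan31 had 16.5 and 14.8 FPKM, and Tspan3 had 7.77 and 7.58 FPKM in wt/fl and fl/fl cells. Tspan2 had 6.62 and 7.29 FPKM, and Tspan5 had 5.49 and 6.28 FPKM. Rom1 had 3.04 and 2.47 FPKM, Tspan17 had 1.70 and 2.22 FPKM, and Tspan18 had 1.52 and 1.45 FPKM. In this group 0 of 9 genes were past 1.5-fold in either direction (1.53% of all compared genes lower, 0.791% higher), their log2 ratios ran from -0.22 (Rom1) to 0.26 (Tspan17), and their median was 0.02. All 12 tetraspanins whose mean level reached 5 FPKM, members and others, had log2 ratios between -0.14 and 0.17.

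Several tetraspanin genes lie beside each other on the chromosome, with positions given as in the table, on mm9. Cd81 (chr7:150218525-150253835) and Tspan32 are 13134 bases apart with 0 genes of the table between them, and the mean level of Cd81 was 2.00-fold that of Tspan32. Cd82 (chr2:93259258-93310031) and Tspan18 are 84613 bases apart, again with 0 genes between, and the mean of Cd82 was 13.8-fold that of Tspan18. Cd151 (chr7:148653260-148657380) lies 3753 bases from Tspan4 with 1 gene of the table between them, and Tspan4 had 0.687 FPKM in wt/fl cells against 0.893 FPKM in fl/fl cells. The remaining members were placed as follows: Cd37 at chr7:52489001-52494209, Cd53 at chr3:106561778-106593067, Cd9 at chr6:125410283-125444773, Cd63 at chr10:128345974-128349874 and Tspan13 at chr12:36741141-36769065.

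The 250 bases upstream of the annotated start are shown for the highest members, Cd37 and Cd53, and for those that differed most between the genotypes, Cd9 and Cd63. They come from the RefSeq promoter table of GRCm38.p6 and are written 5′ to 3′ in the direction of transcription: Cd37 at chr7:45238840-45239089 (minus strand), Cd53 at chr3:106790150-106790399 (minus), Cd9 at chr6:125494761-125495010 (minus) and Cd63 at chr10:128909095-128909344 (plus). Capitals mark matches, on either strand, to 4 short motifs searched: the GC box GGGCGG that Sp1 binds, the TATA box TATAAA, the octamer ATGCAAAT that Oct1 and Oct2 bind, and the PU.1 core GAGGAA.
Cd37: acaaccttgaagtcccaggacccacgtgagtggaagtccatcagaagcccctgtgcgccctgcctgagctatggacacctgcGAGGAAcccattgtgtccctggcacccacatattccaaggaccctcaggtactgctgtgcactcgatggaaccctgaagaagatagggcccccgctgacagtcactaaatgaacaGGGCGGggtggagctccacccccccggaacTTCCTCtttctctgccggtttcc
Cd53: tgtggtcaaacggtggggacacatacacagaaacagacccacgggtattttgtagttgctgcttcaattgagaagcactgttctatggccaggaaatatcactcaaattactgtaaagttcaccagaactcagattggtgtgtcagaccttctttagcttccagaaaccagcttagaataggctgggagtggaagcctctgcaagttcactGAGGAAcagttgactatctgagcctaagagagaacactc
Cd9: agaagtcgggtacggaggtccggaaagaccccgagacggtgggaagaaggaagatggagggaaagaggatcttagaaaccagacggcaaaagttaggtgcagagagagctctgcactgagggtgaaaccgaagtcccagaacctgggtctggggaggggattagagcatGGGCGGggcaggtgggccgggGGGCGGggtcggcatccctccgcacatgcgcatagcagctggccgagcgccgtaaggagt
Cd63: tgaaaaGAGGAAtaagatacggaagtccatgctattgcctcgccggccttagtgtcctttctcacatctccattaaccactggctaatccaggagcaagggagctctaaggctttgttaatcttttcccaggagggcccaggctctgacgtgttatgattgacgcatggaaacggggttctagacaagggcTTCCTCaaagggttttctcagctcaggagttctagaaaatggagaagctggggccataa
These motifs are common, so a match is a description only. Of 32851 promoter windows of this length, 32.7% held the GC box, 23.3% the PU.1 core, 12.4% the TATA box and 1.60% the octamer. Cd37 had 1 GC box and 2 PU.1 cores, Cd53 had 1 PU.1 core, Cd63 had 2 PU.1 cores, and Cd9 had 2 GC boxes. The window of Cd53 was AT-rich (45.2% GC, 2 CpG), whereas that of Cd9 was GC-rich (61.6% GC, 16 CpG) against a median of 52.4% GC and 6 CpG over all windows. Cd37 (58.8% GC, 8 CpG) and Cd63 (48.8% GC, 6 CpG) lay between them. No TATA box was in the window of any member, and the octamer was in that of Tspan13. The members that differed most between the genotypes, Cd9 and Cd63, shared none of the 4 motifs.

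Partners of the members were examined next, beginning with those of CD81. Among 4 genes, Cr2 and those of 3 IFITM proteins, whose products are found with CD81, 2 were at least 1.5-fold lower in fl/fl cells (1.53% of all compared genes) and 0 were higher. Ifitm3 had 20.3 FPKM in wt/fl cells against 10.4 FPKM in fl/fl cells (log2 ratio -0.90). Ifitm1 had 4.01 FPKM in wt/fl cells against 1.34 FPKM in fl/fl cells (-1.10). Both encode interferon-induced membrane proteins, and neither is limited to B cells. Ifitm genes resemble each other closely, so the split of reads among them is uncertain. Ifitm2 had 4.95 FPKM in wt/fl cells against 4.89 FPKM in fl/fl cells (-0.02). Cr2 had 177 FPKM in wt/fl cells against 198 FPKM in fl/fl cells (0.16).

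In the lists of other binding partners, no gene that passed the filter differed by 1.5-fold with the pseudocount. By the same rule 1.53% of all compared genes were lower in fl/fl cells and 0.791% higher. Igsf8 (EWI-2), which binds CD9 and CD81, had 3.53 FPKM in wt/fl cells against 2.35 FPKM in fl/fl cells (log2 ratio -0.44). Its fl/fl level was 66.5% of the wt/fl level, just past 1.5-fold without the pseudocount. The related Ptgfrn was under 0.1 FPKM in both genotypes. Of 12 integrin genes, 8 passed the filter on level, 0 were past 1.5-fold and the median log2 ratio was -0.07, with 6 of the 8 below 0. The lowest ratio was that of Itgam (2.22 and 1.33 FPKM in wt/fl and fl/fl cells, -0.47), also past 1.5-fold without the pseudocount. The integrin genes with the highest levels were Itga4 (69.9 and 66.8 FPKM in wt/fl and fl/fl cells), Itgb7 (62.2 and 59.1 FPKM) and Itgal (48.9 and 43.3 FPKM). The laminin receptor chain Itga6, which pairs with CD151 in other cells, had 4.02 and 3.98 FPKM, and Itga3 was below 1 FPKM. ADAM10, a surface protease, travels with the TspanC8 tetraspanins, and 0 of the 4 genes of this list that passed the filter differed by 1.5-fold, with Adam10 at 20.7 and 21.1 FPKM beside Tspan14, Tspan5 and Tspan17. CD37, CD81 and CD82 accompany MHC class II molecules. The 9 genes of the MHC class II list, which includes the regulator Ciita, were all within 1.5-fold. Of them 8 were above 0 on the log2 ratio scale, with a median of 0.11. Cd74 had 7307 and 7237 FPKM, H2-Aa had 6083 and 6545 FPKM, and H2-Ab1 had 2360 and 2796 FPKM.

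None of the genes listed as handling CD63 that passed the filter differed by 1.5-fold. Of all compared genes, only 1.53% were at least 1.5-fold lower in fl/fl cells and 0.791% higher. A count of 0 in lists this short therefore says little about them. In the list of syntenin, ALIX and ESCRT genes, which form the exosome pathway, 0 of 8 genes past the filter differed by 1.5-fold and the median log2 ratio was 0.02. Sdcbp (syntenin, which binds the CD63 tail) had 77.7 FPKM in wt/fl cells against 79.8 FPKM in fl/fl cells. Pdcd6ip (ALIX) had 35.9 and 36.9 FPKM, and Vps4b had 31.7 and 31.9 FPKM. Among the 8 adaptor genes of the AP-2 and AP-3 complexes, which read tyrosine signals such as that of CD63, 0 differed by 1.5-fold and the median was 0.04. Ap2m1 had 47.4 and 52.4 FPKM, Ap3b1 had 44.4 and 46.4 FPKM, and Ap2s1 had 44.4 and 42.3 FPKM in wt/fl and fl/fl cells.

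**Figure D4:**
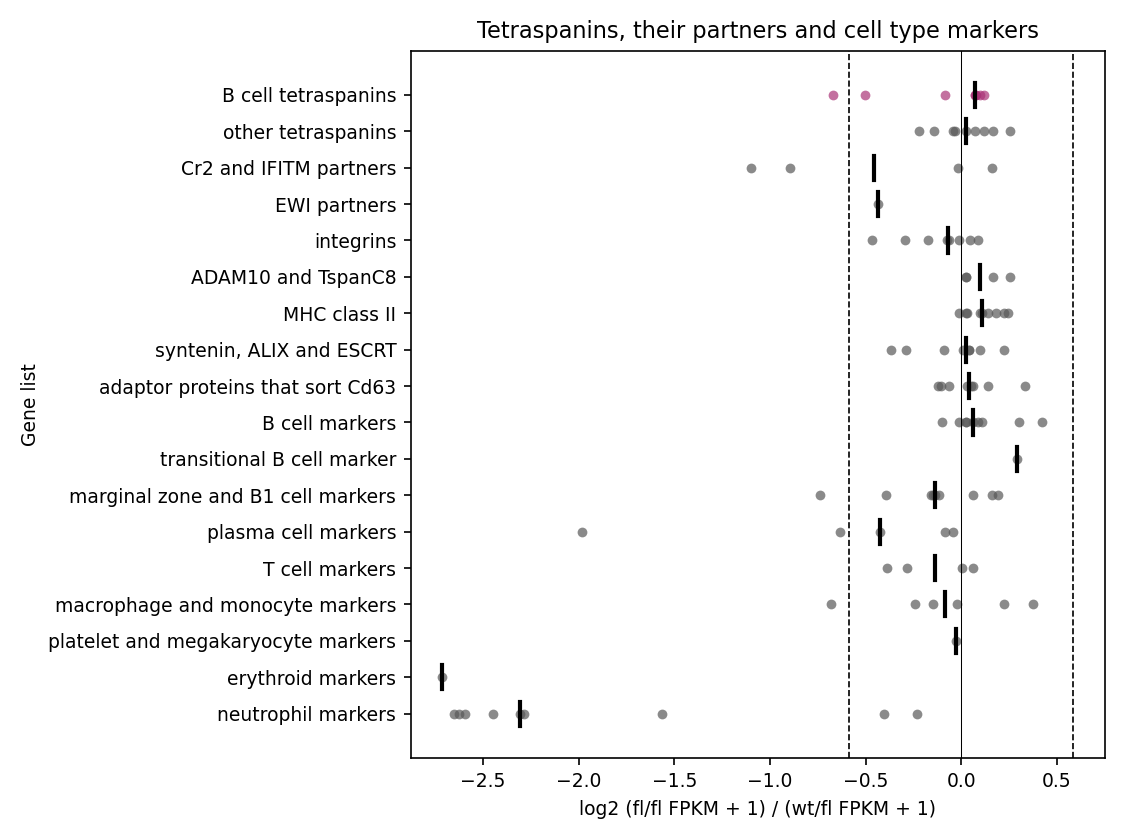
Log2 ratio of fl/fl over wt/fl for each gene whose mean level reached 1 FPKM, by list, with the B cell tetraspanins in purple. Vertical bars are the medians and dashed lines are at 1.5-fold. The medians of the erythroid (-2.71, from 1 gene) and neutrophil markers (-2.31) are the lowest, followed by those of Cr2 and the IFITM partners (-0.46), the EWI partner Igsf8 (-0.44) and the plasma cell markers (-0.43).

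Cd9 and Cd63 are also expressed by cells other than follicular B cells, and the markers of several such cells were examined beside them. For the counts that follow, 1.53% of all compared genes were at least 1.5-fold lower in fl/fl cells and 0.791% higher. Marginal zone and B1 cell markers had a summed level of 450 FPKM in wt/fl cells against 403 FPKM in fl/fl cells, and 1 of the 9 that passed the filter was past 1.5-fold, the lower Plac8 (138 and 82.1 FPKM), while Cr2, Notch2 (79.7 and 73.5 FPKM) and the other 6 were within. Without Plac8 the sums were 313 FPKM in wt/fl cells and 321 FPKM in fl/fl cells, of which Cr2 made up 177 and 198 FPKM. Of the 9 genes, 3 had log2 ratios above 0, namely Cr2, Cd1d1 (15.1 and 15.7 FPKM) and S1pr3 (2.35 and 2.83 FPKM). Below 0 were 6, among them Plac8, Notch2 and Dtx1 (27.3 and 20.6 FPKM, log2 ratio -0.39), and the median of the 9 was -0.14. Plasma cell markers summed to 307 FPKM in wt/fl cells against 248 FPKM in fl/fl cells, nearly all of it from Mzb1, Irf4 and Xbp1. Of the 5 that passed the filter all had a log2 ratio below 0 and 2 were past 1.5-fold, Igj (5.40 and 0.617 FPKM) and Sdc1 (2.30 and 1.13 FPKM), while Mzb1 (189 and 140 FPKM), Irf4 (60.8 and 58.9 FPKM) and Xbp1 (48.8 and 45.9 FPKM) were within. Their part in the difference of Cd9 and Cd63 was not tested.

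Markers of neutrophils and red cells differed more. Those of macrophages and monocytes were mixed. The median log2 ratio of the 6 that passed the filter was -0.09, with 2 above 0 and 4 below. Neutrophil markers summed to 388 FPKM in wt/fl cells against 73.4 FPKM in fl/fl cells, and 7 of the 9 that passed the filter were past 1.5-fold, all lower, namely S100a9 (175 and 34.5 FPKM), S100a8 (145 and 25.8 FPKM), Camp (15.3 and 1.70 FPKM), Retnlg (13.0 and 1.88 FPKM), Ngp (13.4 and 1.29 FPKM), Lcn2 (12.6 and 1.21 FPKM) and Ltf (2.31 and 0.118 FPKM). Cxcr2 (5.99 and 4.96 FPKM, log2 ratio -0.23) and Csf3r (2.32 and 1.51 FPKM, -0.41) passed the filter and were within 1.5-fold with the pseudocount. The early granule genes Elane (0.119 FPKM in wt/fl cells) and Mpo (0.0916 FPKM) were listed at 0 in fl/fl cells and lay far below the filter in both genotypes. Macrophage and monocyte markers summed to 89.9 FPKM in wt/fl cells against 60.7 FPKM in fl/fl cells, of which Lyz2, a gene that neutrophils also express, made up 72.6 and 44.9 FPKM and was 1 of 6 past 1.5-fold. Cd68 had 7.41 and 6.10 FPKM, and C1qb, a macrophage gene, had 1.61 and 2.39 FPKM. Under the filter, Emr1 (1.34 and 0.652 FPKM) and Cd14 (0.366 and 0.0817 FPKM) were lower in fl/fl cells. Erythroid markers summed to 55.5 FPKM in wt/fl cells against 7.72 FPKM in fl/fl cells, nearly all of it the beta globin gene listed as Beta-s (52.0 and 7.08 FPKM), and Gata1 was listed at 0 in both. The part of neutrophils, macrophages and red cells in the levels of Cd9, Cd63, Ifitm1 and Ifitm3 was not tested.

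Markers of the remaining cell types were low or close between the genotypes. CD9 is abundant on platelets, and platelet and megakaryocyte markers summed to 2.97 FPKM in wt/fl cells against 4.23 FPKM in fl/fl cells. Only Ppbp (1.43 and 1.38 FPKM) passed the filter on level, and the sums differed mainly by Pf4 (0.168 and 0.880 FPKM) and Gp1ba (0.618 and 1.07 FPKM), which did not. Their part in the level of Cd9 was not tested. In this list Gp9 was listed at 0 in fl/fl cells and Treml1 in wt/fl cells. Basophil and mast cell markers, whose cells carry CD63 in their granules, summed to 1.17 FPKM in wt/fl cells against 1.23 FPKM in fl/fl cells. None of them passed the filter. Ms4a2 (0.629 and 1.02 FPKM) was higher in fl/fl cells, whereas Cpa3 (0.269 and 0.0659 FPKM), Gata2, Mcpt8 and Fcer1a were lower. Their part in the level of Cd63 was not tested. Dendritic cell markers summed to 2.96 and 2.70 FPKM, and T cell markers to 24.1 and 22.5 FPKM, of which Lck, which B cells also express, made up 14.5 FPKM in each. Cd3d (3.02 and 2.31 FPKM), Cd3e (1.83 and 1.96 FPKM) and Cd3g (1.96 and 1.26 FPKM) were, like Lck, within 1.5-fold with the pseudocount, and Cd3g had the lowest log2 ratio of them (-0.39).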

How the data were processed

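RNA of sorted follicular B cells of CD23Cre+Myh9wt/fl mice (3 samples) and of CD23Cre+Myh9fl/fl mice (3 samples) was amplified (Ovation) and made into TruSeq Nano libraries, per the labels. Bowtie, TopHat and Cufflinks, with mm10 and GRCm38, are named in the submitters' processing notes without versions. The authors deposited 1 table of coding-sequence groups in the layout of Cuffdiff, with 1 FPKM per genotype pooled over its samples. Its columns of fold change, test statistic, p-value and q-value hold the authors' own comparison and were not used. The planned design allowed for values per sample, which the table did not give, so nothing was tested. Its tetraspanin positions reach 150253835 on chromosome 7, beyond the last annotated gene of GRCm38 (145324086), and fit mm9. They were not converted.

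FPKM was summed per gene over the entries, each of the 8 members having 1. Excluded were 44 entries (25 names) turned into dates by a spreadsheet. The log2 ratio is fl/fl over wt/fl with a pseudocount of 1, which understates low genes. Genes whose mean level reached 1 FPKM were compared and a 1.5-fold difference was counted. The calculation was tested on simulated data. Low FPKM times transcript length lay within 0.1 of a whole step for 28.1% of 612 genes in wt/fl and 33.8% of 869 in fl/fl cells, so whole reads were not recovered and depth is unknown. The members and lists were chosen with earlier results of these data known. Named genes were all members, Myh9, other tetraspanins past the filter, and in each list its 3 highest genes and any past the fold; others were named after their values were seen. A gene of the lists is not reported here. Proteins were translated from GENCODE M21 and aligned in Biopython 1.88. Promoters came from RefSeq, and all 8 members matched in both. The last membrane span was taken as the most hydrophobic stretch after the motif. Python 3.11.15, pandas 2.3.3 and numpy 2.4.6 were used. The alternatives tried were other pseudocounts (0.1, 0.5 and none), filters, scaling and folds.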

Additional observations from a re-analysis of the deposited data

How the results depend on the processing

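The number of members past the fold was 1 (Cd9). It was 2, with Cd63 added, for a pseudocount of 0.1, for no pseudocount and for a difference of at least 25%, and 0 for a fold of 2. It was also 0 for genes whose mean level reached 5 FPKM, a filter that removes Cd9 and Cd63. It remained 1 for a pseudocount of 0.5, with no filter, with upper quartile scaling and with the highest entry of each gene. The number of other tetraspanins past the fold was 0 under each of these, and the median of the members stayed at 0.07. Of 54 values of single members under the alternatives, 52 were on the same side of the fold, 2 (both Cd63, -0.65 with a pseudocount of 0.1 and -0.67 with none) passed it and 0 changed sign. Upper quartile scaling moved the median of all genes by -0.0058. No paired analysis was possible because the table gives 1 pooled value per genotype, and leaving out a replicate and the fit per sample were not run for the same reason. The unknown depth limits the low genes most, which include Cd9 and Cd63.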

Other observations

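Ifitm1, Ifitm2, Ifitm3, Ifitm5 and Ifitm6 lie in a cluster on chromosome 7 and were looked at together after the values of Ifitm1 and Ifitm3 had been seen. Ifitm6, next to Ifitm3, had 3.04 FPKM in wt/fl cells against 1.80 FPKM in fl/fl cells (log2 ratio -0.53). This is short of 1.5-fold with the pseudocount and past it without. Ifitm5 had 0.919 and 0.891 FPKM. Outside the cluster, Ifitm7 on chromosome 16 had 0.964 and 0.764 FPKM, and Ifitm10, further along chromosome 7, had 0.0327 and 0.0913 FPKM. Thus Ifitm1, Ifitm3 and Ifitm6 had the lower ratios of the cluster, and Ifitm2, which lies between Ifitm5 and Ifitm1, had a ratio of -0.02.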
